A study of Mus musculus with 3 samples.

Results

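A set of 9 mouse genes of coagulation and fibrinolysis was examined for FLI1 and RUNX1 occupancy in mature megakaryocytes (MK), the large blood-forming cells that shed platelets. The genes were picked by function out of 22367 protein-coding genes, and no read count entered the rule that lists them. They were, however, chosen with earlier results of these data known. Vwf, F5, F13a1 and Serpine2 were taken as the 4 genes that MK make, F2, Fga and F9 as 3 genes of the hepatocyte, and Pros1 and F8 were kept apart. These assignments are background knowledge, because ChIP-seq reads do not measure expression. The study's own list of transcripts raised in mature over immature MK includes Vwf, F5 and also Pros1.

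The data were 3 libraries, 1 of chromatin precipitated with FLI1 antibody, 1 with RUNX1 antibody and 1 of input DNA. All came from wild-type CD1 mouse fetal liver, labelled embryonic day 15, cultured for 5 days in thrombopoietin, freed of other lineages with antibodies and enriched for large cells over albumin gradients. Per the labels, each library, input included, was made from pooled DNA of at least 3 replicates, so no library has a replicate, no test between libraries was possible, and the intervals given are exact 95% intervals for counting error only. The study's methods describe input chromatin cut with micrococcal nuclease beside sonicated ChIP chromatin, whereas the labels mention sonication alone, and the effect of this difference on ratios to input was not tested.

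In hemostasis, von Willebrand factor tethers platelets to the injured wall, a cascade of proteases and cofactors makes thrombin, thrombin turns fibrinogen into fibrin, and plasmin later dissolves the clot. Most soluble factors come from hepatocytes, but MK load some of the proteins into the granules of the platelets they release. FLI1, of the ETS family, binds DNA around a GGAA core, and RUNX1 binds TGTGGT or TGCGGT. Both factors are needed for normal platelet production.

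The FLI1 library held 62946422 nuclear reads, RUNX1 3973856 and the input 21745220 distinct reads, or 10.6, 0.668 and 3.66 reads per 400-bp bin of the genome. RUNX1 counts in single bins are therefore small. Reads were 50 bp long in the FLI1 and RUNX1 libraries and 34 bp in the input. The effect of this difference on ratios to input was not tested. The RUNX1 file held far fewer reads than the study lists as mapped for its RUNX1 library, so the RUNX1 values are those of this file and not of that full set. F8 and F9 lie on the X chromosome, where a bin held 0.634, 0.691 and 0.604 times the autosomal mean of the 3 libraries in that order. As a check of the labelled cell type, 6 of 8 MK marker genes and 0 of 6 hepatocyte markers had a FLI1 ratio to input of at least 2 within 2 kb of the start site. Median ratios were 2.62 and 0.845. Of erythroid, granulocyte and macrophage, and endothelial markers, 0 of 4, 1 of 6 and 1 of 5 reached 2. Among all 21347 genes with at least 10 input reads, 25.7% did. RUNX1 did not set the MK markers apart in this way, with 1 of 8 at a ratio of 2 or more (median 1.64) and 0 of 6 hepatocyte markers (median 1.16), beside 16.7% of all genes. The marker lists were chosen with earlier results of these data known, so the check is not an independent one.

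FLI1 reads stood out at 15 sites in or within 20 kb of these genes, and the DNA under 11 of them, among them the F5 upstream site inside Selp and the F8 start site shared with Fundc2, is shown first because the occupancy results refer back to it. Each line gives 101 bases around the summit, the position with most FLI1 fragments inside the called bins of a site. Coordinates are mm9, and letters run 5′ to 3′ on the strand of the named gene. Capitals mark, on either strand, the ETS words CAGGAAA and also CAGGAAG, their counterparts CCGGAAA and also CCGGAAG, the shorter ETS word GGAAGT, and the RUNX words TGTGGT and TGCGGT.
Vwf coding transcript start, chr6:125502880-125502980 (plus strand): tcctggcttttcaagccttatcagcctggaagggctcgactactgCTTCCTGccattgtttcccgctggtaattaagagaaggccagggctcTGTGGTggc
Vwf intron 3, chr6:125507448-125507548 (plus strand): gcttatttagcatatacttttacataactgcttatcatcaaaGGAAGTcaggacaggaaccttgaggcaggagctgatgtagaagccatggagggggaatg
Vwf intron 6, chr6:125533842-125533942 (plus strand): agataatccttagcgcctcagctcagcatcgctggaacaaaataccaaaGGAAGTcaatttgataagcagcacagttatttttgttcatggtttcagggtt
Vwf exon 14, chr6:125553346-125553446 (plus strand): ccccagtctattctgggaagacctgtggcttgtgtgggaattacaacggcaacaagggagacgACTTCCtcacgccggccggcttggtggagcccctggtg
F5 upstream site, chr1:166065668-166065768 (plus strand): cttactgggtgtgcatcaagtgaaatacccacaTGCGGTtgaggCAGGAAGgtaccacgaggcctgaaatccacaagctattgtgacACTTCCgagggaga
F5 intron 2, chr1:166089919-166090019 (plus strand): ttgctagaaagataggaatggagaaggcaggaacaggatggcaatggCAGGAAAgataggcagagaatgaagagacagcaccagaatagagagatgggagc
F13a1 upstream site, chr13:37148669-37148769 (minus strand): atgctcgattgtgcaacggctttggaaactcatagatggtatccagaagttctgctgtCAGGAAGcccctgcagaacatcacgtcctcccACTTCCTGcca
F13a1 start site, chr13:37142130-37142230 (minus strand): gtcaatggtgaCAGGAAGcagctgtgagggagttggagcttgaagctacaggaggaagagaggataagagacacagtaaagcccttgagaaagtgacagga
Pros1 start site, chr16:62853987-62854087 (plus strand): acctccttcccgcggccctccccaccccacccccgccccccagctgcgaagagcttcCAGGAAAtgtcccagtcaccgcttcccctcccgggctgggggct
Pros1 intron 1, chr16:62856282-62856382 (plus strand): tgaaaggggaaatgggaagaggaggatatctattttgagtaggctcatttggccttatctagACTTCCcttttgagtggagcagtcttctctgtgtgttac
F8 start site, chrX:72627630-72627730 (minus strand): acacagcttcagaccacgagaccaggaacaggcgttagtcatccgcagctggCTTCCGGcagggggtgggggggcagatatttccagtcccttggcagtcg

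The first comparison asked whether FLI1 or RUNX1 reads were raised over input around the start site, taken as the 5′ end of the gene record with 2 kb on either side. Of the 9 genes, 2 had a FLI1 ratio to input of at least 2 (background 25.7% of genes), and both lay outside the MK and liver groups. None of the 9 had a RUNX1 ratio of at least 2 (background 16.7%). The median FLI1 ratio was 1.45 for the MK-made genes and 0.932 for the liver genes, against 1.28 for all genes. The corresponding RUNX1 medians were 1.22, 1.65 and 1.19.

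Among the MK-made genes, the window of Vwf, the multimeric adhesion protein that also carries factor VIII in plasma, held 140 FLI1, 10 RUNX1 and 39 input reads, or 2.22, 2.52 and 1.79 reads in each 1000000 nuclear reads (RPM). After depth scaling the FLI1 ratio was 1.24 (0.864–1.82), at or above that of 48.0% of genes, and the RUNX1 ratio was 1.40 (0.625–2.86). Neither library rose above input beyond counting error at this start, which lies 6174 bp before that of the longest coding transcript. The study's own list places a FLI1 and a RUNX1 peak close to the start it used for Vwf. F5 encodes factor V, the cofactor that speeds thrombin formation, and its window held 200, 14 and 45 reads, for a FLI1 ratio of 1.54 (1.11–2.17). F13a1, the catalytic subunit of the transglutaminase that cross-links fibrin, held 335, 11 and 58 reads, the most FLI1 reads of the 9 genes, and its ratio of 1.995 (1.51–2.68) lay just under the threshold. Serpine2, protease nexin-1, which inhibits thrombin and plasminogen activators, held 186, 8 and 47 reads and a ratio of 1.37 (0.988–1.93). FLI1 RPM exceeded input RPM at all 4 MK-made genes, as it did at most genes (7205 of 21347 had a ratio below 1), with intervals that excluded 1 at F5 and F13a1.

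The 2 genes past the threshold were Pros1 and F8. Pros1, protein S, which assists activated protein C in shutting down the cascade, held 212 FLI1, 5 RUNX1 and 32 input reads, a FLI1 ratio of 2.29 (1.57–3.43). F8, the cofactor of factor IXa, held 189, 7 and 23 reads, a ratio of 2.84 (1.84–4.59), at or above 89.0% of genes. In both, FLI1 was above input and RUNX1 was within counting error of it, at ratios of 0.855 (0.260–2.21) and 1.67 (0.604–4.01).

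The liver genes had fewer FLI1 reads. F2, prothrombin, held 117 FLI1, 8 RUNX1 and 45 input reads, and Fga, the fibrinogen alpha chain, held 116, 13 and 43. Their FLI1 ratios were 0.898 (0.632–1.30) and 0.932 (0.652–1.36). F9, the protease factor IX, held 87, 6 and 18 reads, and its ratio of 1.67 (0.997–2.95) was higher than those of Vwf, F5 and Serpine2 on few input reads. The order of FLI1 ratios was therefore F8, Pros1, F13a1, F9, F5, Serpine2, Vwf, Fga and F2, and each gene's interval overlapped that of its neighbour.

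**Figure D1:**
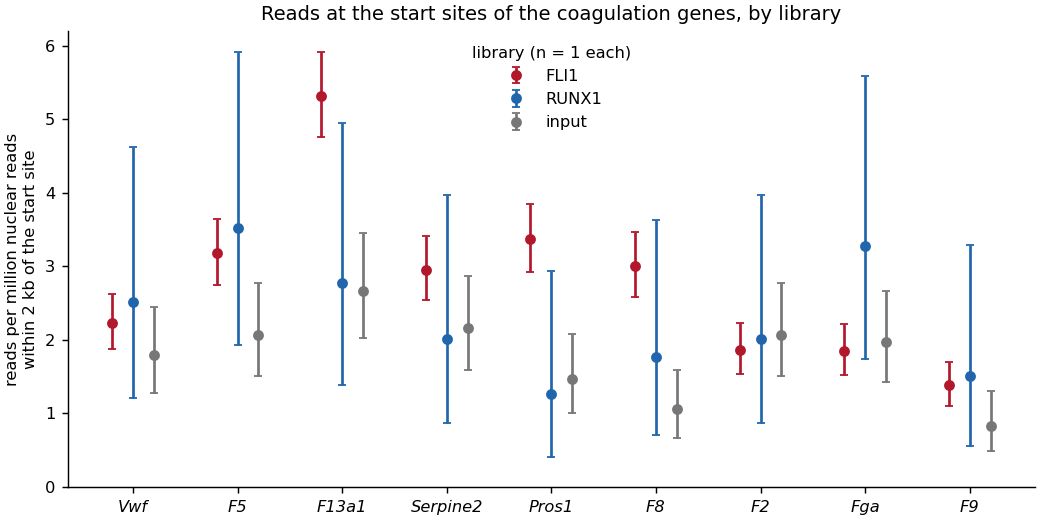
Depth-scaled reads (RPM, vertical axis) within 2 kb of the start site of each gene (horizontal axis), for the FLI1, RUNX1 and input libraries, with exact 95% Poisson intervals for counting error as bars. FLI1 was above input by the widest margin at F13a1 (5.32 against 2.67) and RUNX1 intervals overlapped the input intervals at every gene.

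**Figure D2:**
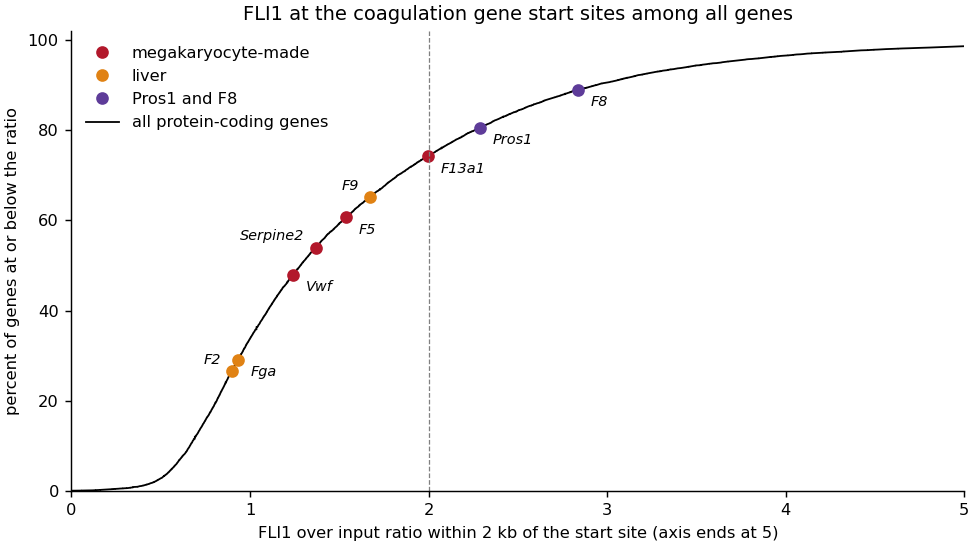
Percent of the 21347 protein-coding genes at or below each FLI1 over input ratio (black line, horizontal axis cut at 5), with the 9 coagulation genes as points on it and the ratio of 2 as the dashed line. F8 and Pros1 lie right of the line, F13a1 at 1.995 lies on it, and F2 and Fga sit lowest at 26.5% and 29.0%.

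The width of the window mattered. Within 1 kb of the start, 5 of the 9 genes had a FLI1 ratio of at least 2 (background 36.6%), namely F8 at 4.40 (2.45–8.71), F13a1 at 4.15 (2.68–6.73), F5 at 2.74 (1.57–5.17), F9 at 2.71 (1.15–7.75) and Pros1 at 2.61 (1.59–4.54). Vwf was at 0.872 (0.517–1.52) and F2 at 0.780 (0.504–1.23). F9 had only 6 input reads there, under the minimum of 10 set for the background, so without it the count is 4 of 8 genes. The RUNX1 ratio reached 2 at Fga and F9, at 2.35 (0.946–5.34) and 3.65 (0.757–15.4), with intervals that include 1 (background 27.5%), or at 1 of 8 genes without F9. For Vwf, F13a1 and F8 the transcript with the longest coding sequence starts 6174, 1031 and 299 bp into the gene record, and within 2 kb of those starts the FLI1 ratios were 1.21, 2.15 and 2.50.

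Start sites of these genes differed in base composition. GC content over 1 kb ran from 42.0% at F9 and 43.2% at F13a1 to 70.2% at Serpine2, against a median of 54.8% over all genes. The ratio of observed to expected CpG was 0.140 at F13a1, 0.186 at Vwf, 0.197 at F2, 0.209 at Fga and 0.230 at F5, and 0.828 at Serpine2, against a median of 0.549. F9 was at 0.376, so the 3 liver genes and 3 of the 4 MK-made genes lay below the median and Serpine2 above it.

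The second comparison covered each gene with 20 kb on either side, cut into 400-bp bins counted from the start site. A bin was called for FLI1 at 4-fold, and for RUNX1 at 8-fold, over the higher of its own depth-scaled input and the genome mean. Over 2882 bins the 9 genes had 20 FLI1 bins, 0.694% (background 0.364% of genome bins), and 3 RUNX1 bins, 0.104% (background 0.0573%). The MK-made genes had 14 FLI1 bins of 1542, 0.908% (0.497–1.52), of which 13 lay away from the start of any other gene. These 13 include the F5 bins upstream of its start, all of which lie inside Selp. The liver genes had 2 of 427, 0.468% (0.0568–1.68), and both lay at the start of another gene. The genome background takes in bins far from any gene and leaves out bins without a read. Each territory, in contrast, holds a start site and keeps its empty bins. No share was worked out over the territories of all genes, so the background is not a matched one. Nor was a background share worked out for bins away from other starts, so the 13 have no matching value. Neighbouring bins share one site and gene territories differ in length, so bins are not independent observations. Summed over a whole territory the FLI1 ratio stayed between 0.913 at Fga and 1.32 at F5. Called bins held at most 27.5% of a gene's FLI1 reads, at F2, where the territory ratio was 1.01.

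Vwf spans chr6:125496792-125636697 on the plus strand and had 4 separate FLI1 bins inside the gene record. The first, 6.0 kb after the start of the gene record, held 90 FLI1, 7 RUNX1 and 7 input reads, a FLI1 fold of 4.44, and its summit lay 36 bp before the start of the longest coding transcript. Its sequence held an ETS word 2 bp from the summit and a RUNX word. Bins at 10.4 kb in intron 3, with 90, 1 and 3 reads, and at 36.8 kb in intron 6, with 166, 5 and 7 reads, reached 8.50-fold and 8.19-fold for FLI1. With the input averaged over 10 kb the intron 3 bin fell to 5.18-fold. The Vwf bin with the highest FLI1 fold, at 56.4 kb over coding exon 14, held 118, 7 and 3 reads. Its folds were 11.1 for FLI1 and 10.5 for RUNX1, both over the genome mean, which was higher than its own depth-scaled input. It was the only Vwf bin called for both factors, and its 7 RUNX1 reads came from both strands, 4 plus and 3 minus. With the input averaged over 10 kb its FLI1 fold was 7.49, below the 10.2 of the intron 6 bin. Its RUNX1 call was lost at that setting. The windows in introns 3 and 6 shared a run of 12 bases, CAAAGGAAGTCA, whereas other pairs of the 4 Vwf windows shared runs of 5 to 7.

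F5 spans chr1:166081969-166150408 on the plus strand, and its strongest FLI1 site lay 16251 bp upstream of the start, inside intron 8 of Selp, the gene of the adhesion receptor P-selectin. The middle bin of the site held 437 FLI1 reads, 11 RUNX1 reads and 0 input reads, 41.3-fold for FLI1 and 16.5-fold for RUNX1. With the input averaged over 10 kb around it the FLI1 fold was 27.0. On a fixed grid over the genome the site had up to 410 reads and 38.7-fold, and 1 of 5946524 bins had a higher FLI1 fold, while 26 had more FLI1 reads. The adjacent bins held 122 and 121 FLI1 reads and 6.02-fold and 5.23-fold. Of the 11 RUNX1 reads 3 were on the plus and 8 on the minus strand, and the sequence held an ETS word 3 bp and a RUNX word 14.5 bp from the summit. The site lies within 20 kb of F5 and within Selp, and from these reads the genes cannot be told apart as its owner. The study's list of transcripts raised in mature MK holds Selp as well as F5.

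Other FLI1 bins at F5 were weaker. One at 8.0 kb in intron 2 held 61 FLI1, 3 RUNX1 and 3 input reads, 5.76-fold. Its summit, with a CAGGAAA word centred on it, was the first base of the bin. The adjoining bin at 7.6 kb held more FLI1 reads, with 88, 5 and 8, but was not called at 3.80-fold. The position with most fragments may thus lie outside the called bin. Another called bin, 2.8 kb upstream in a UTR exon of Selp, held 47, 0 and 1, 4.44-fold. With the input over 10 kb it was at 3.59-fold, which ends its call. F5 had the highest share of FLI1 reads in called bins of the MK-made genes, 18.3%, and the highest territory ratio, 1.32 (1.24–1.41).

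F13a1 spans chr13:36959047-37142113 on the minus strand, and its FLI1 reads gathered at 2 sites near the start. At the start, 3 adjoining bins held 98, 73 and 47 FLI1 reads, with 1, 1 and 5 RUNX1 reads and 4, 2 and 1 input reads. Folds for FLI1 were 8.46, 6.90 and 4.44, and the summit lay 67 bp before the gene's 5′ end. With the input over 10 kb they were 6.003, 4.471 and 2.859, so that the third lost its call. A bin 6.8 kb upstream held 190, 4 and 8 reads, 8.20-fold (12.8 over the 10-kb input), and its 101 bases held 2 ETS words. No other bin of its 558 was called, across a territory, flanks included, in which 39 bins held no read in any library.

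Serpine2 spans chr1:79790772-79855271 on the minus strand and had no called bin of its own. The bin over its start held 33 FLI1, 0 RUNX1 and 1 input reads, 3.12-fold. Its highest bins, at 54.8, 11.6 and 22.4 kb into the gene, reached 3.97, 3.89 and 3.52, all under the 4-fold limit. Moving the bins by 200 bp gave 3 called bins in this territory in place of 1, so the count depends on where bins fall. The 1 called bin, 82.4 kb from the start and past the end of the gene, held 215, 3 and 5 reads, 14.9-fold, at the start shared by Mrpl44 and Wdfy1.

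**Figure D3:**
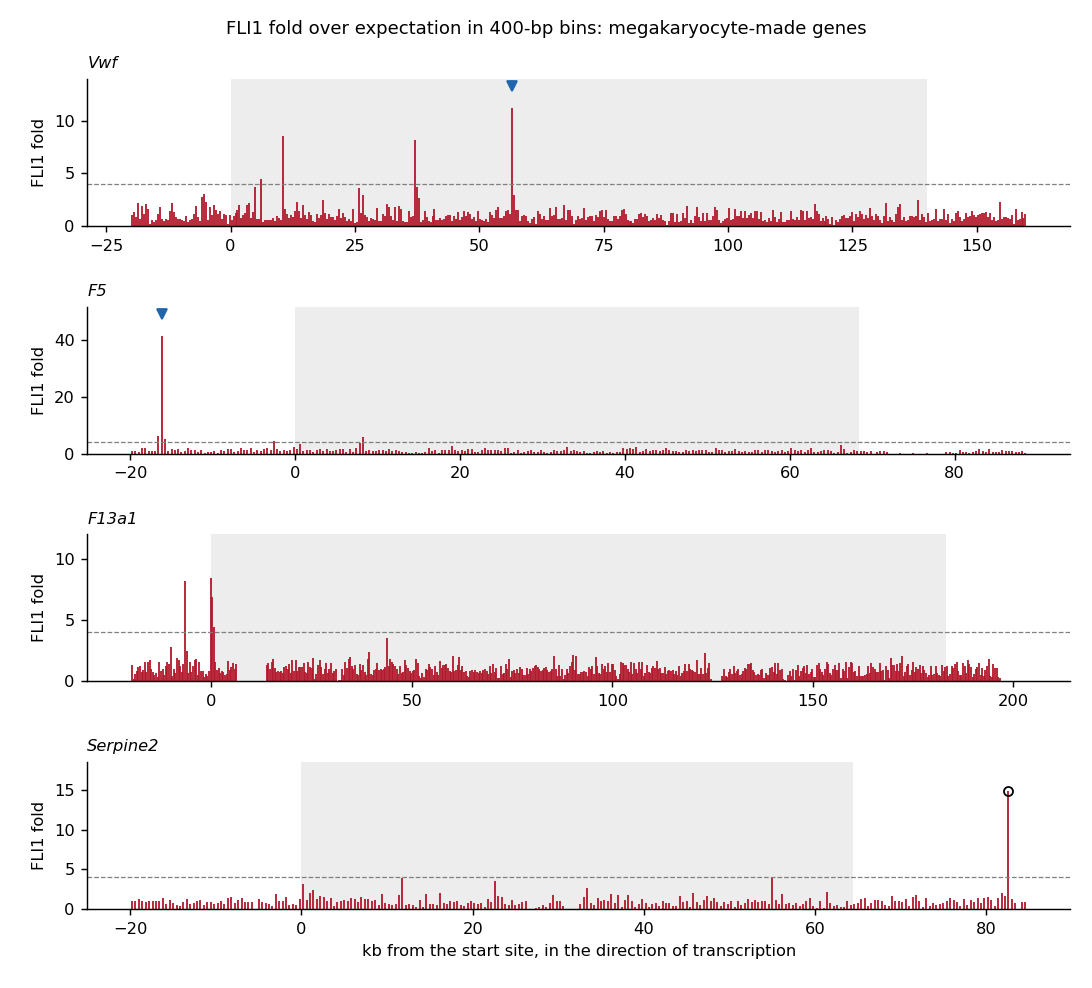
FLI1 fold over expectation (vertical axis, scaled separately per gene) in each 400-bp bin of the 4 MK-made genes against distance from the start site in kb. Grey marks the gene, the dashed line 4-fold, open circles called bins at the start of another gene and blue triangles bins called for RUNX1. Vwf has isolated bins up to 11.1-fold, F5 a single upstream site at 41.3-fold, F13a1 bins around its start, and Serpine2 none of its own.

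Pros1 spans chr16:62854133-62929172 on the plus strand. The bin just before its start held 49 FLI1, 0 RUNX1 and 0 input reads, 4.63-fold, with a CAGGAAA word 10 bp from the summit. A bin 2.0 kb into intron 1 held 77, 1 and 3 reads, 7.27-fold, and the third, 7.6 kb upstream with 55, 0 and 4 reads, lay at the start of Arl13b. F8 spans chrX:72418054-72627954 on the minus strand and had 1 called bin among 625, over its first 400 bp, with 106 FLI1, 0 RUNX1 and 3 input reads and 10.01-fold. Its summit lay 25 bp before the start of the longest coding transcript of F8 and 58 bp from the start of Fundc2, so the site cannot be given to either gene. Taking the mean of the X chromosome in place of the genome mean left this count at 1. In the F8 territory, flanks included, 81 bins held no read in any library.

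F2 spans chr2:91465477-91476571 on the minus strand, and its own bins stayed below 4-fold. The 2 called bins lay 13680 bp upstream, at the starts of Arhgap1 and Zfp408, with 326, 7 and 3 reads at 30.8-fold in one and 183, 2 and 7 at 9.03-fold in the other. The first was called for RUNX1 too, at 10.5-fold. Over the 10-kb input its FLI1 fold was 18.3 and its RUNX1 call was lost. Fga, at chr3:82830075-82838036 on the plus strand, had no bin above 1.98-fold in 120 bins, and F9, at chrX:57252641-57283936 on the plus strand, none above 2.93-fold in 179. Over the 427 bins of the 3 liver genes, bins at other starts included, a count of 0 own bins allows a share of up to 0.703%. This limit was taken as 3 counts of the total and is not the bound of an exact interval.

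**Figure D4:**
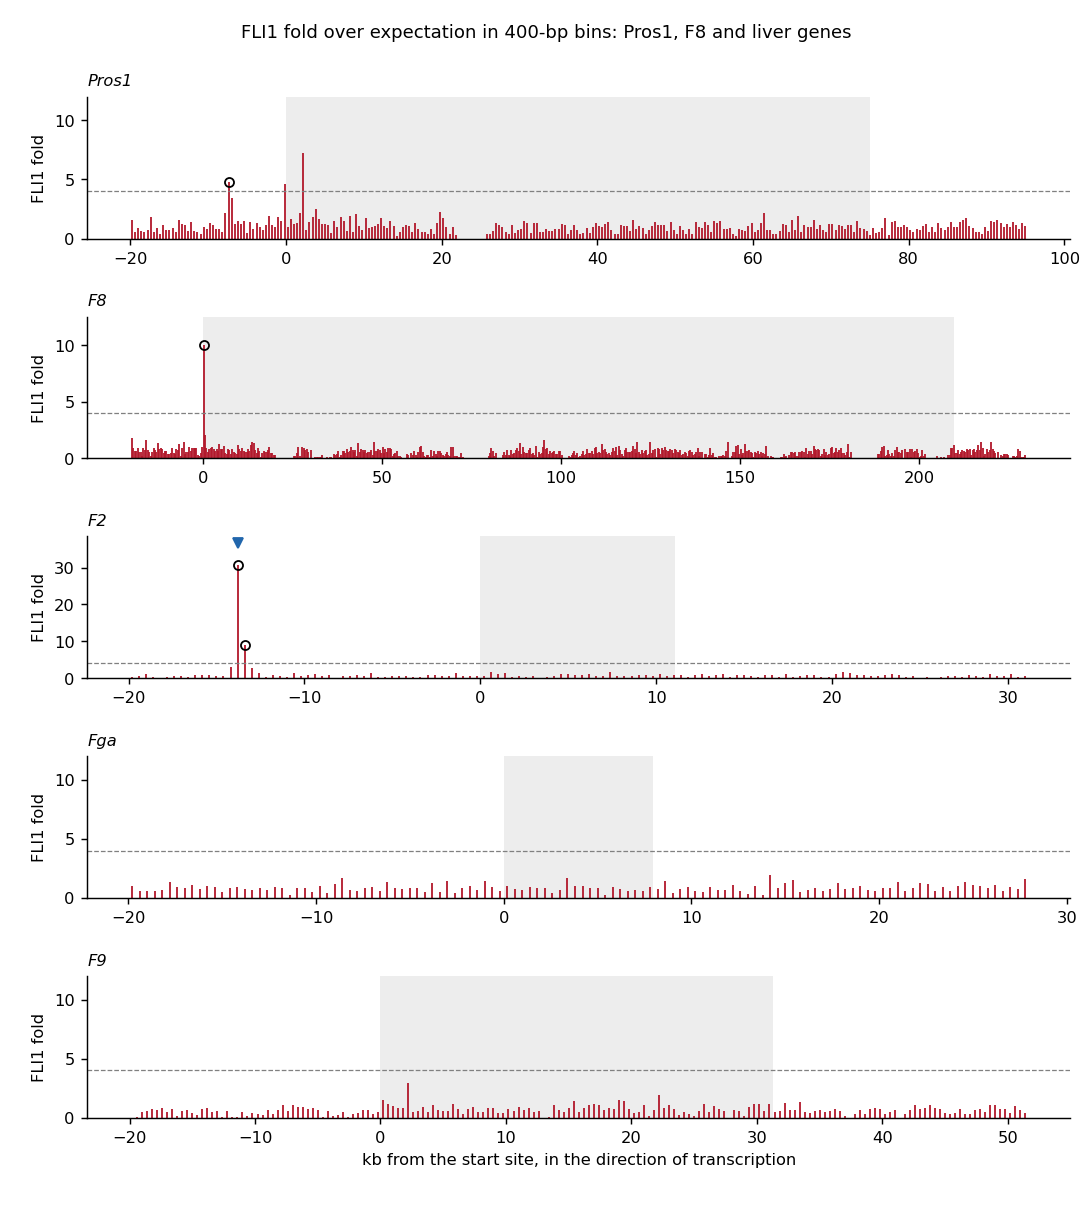
FLI1 fold over expectation (vertical axis, scaled separately per gene) in each 400-bp bin of Pros1, F8, F2, Fga and F9 against distance from the start site in kb, with marks as in the plot of the MK-made genes. Pros1 has bins at 4.63-fold and 7.27-fold of its own, and the F8 bin lies at its own start and that of Fundc2. The F2 bins are at starts of other genes, and Fga and F9 stay under the dashed line.

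The third comparison asked how many RUNX1 reads fell in the bins chosen on FLI1. The 20 FLI1 bins held 62 RUNX1 and 79 input reads, a RUNX1 ratio of 4.29 (3.03–6.07), beside 3.25 (3.21–3.29) over all 21620 FLI1 bins of the genome. FLI1 bins are partly chosen for low input, and against the genome mean of RUNX1 instead of the input the values were 4.64 (3.56–5.95) and 3.36 (3.33–3.39). RUNX1 was called in 3 of the 20 bins (background 4.37% of FLI1 bins), at Vwf exon 14, the F5 upstream site and the Arhgap1 start near F2, and at this threshold in no bin without FLI1. With the input over 10 kb, only the bin at the F5 upstream site kept its RUNX1 call. At 6-fold for RUNX1, which 0.223% of genome bins reached, the MK-made genes had 7 of 1542 bins, 4 of them without a FLI1 call, 3 in Vwf and 1 in F13a1 with 5 RUNX1 reads each. By gene the RUNX1 ratio was 5.47 (2.79–10.7) over the Vwf bins, 5.18 (2.57–10.4) over the F5 bins and 4.01 (1.67–9.35) over the F13a1 bins, with intervals that overlapped widely. The 15 bins away from other starts had 4.80 (3.22–7.14), and 4 of the 20 bins had no RUNX1 read, 2 of them in Pros1 and the others in F5 and F8. With 1 RUNX1 library, the occupancy of single bins by RUNX1 rests on 7 to 11 reads.

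**Figure D5:**
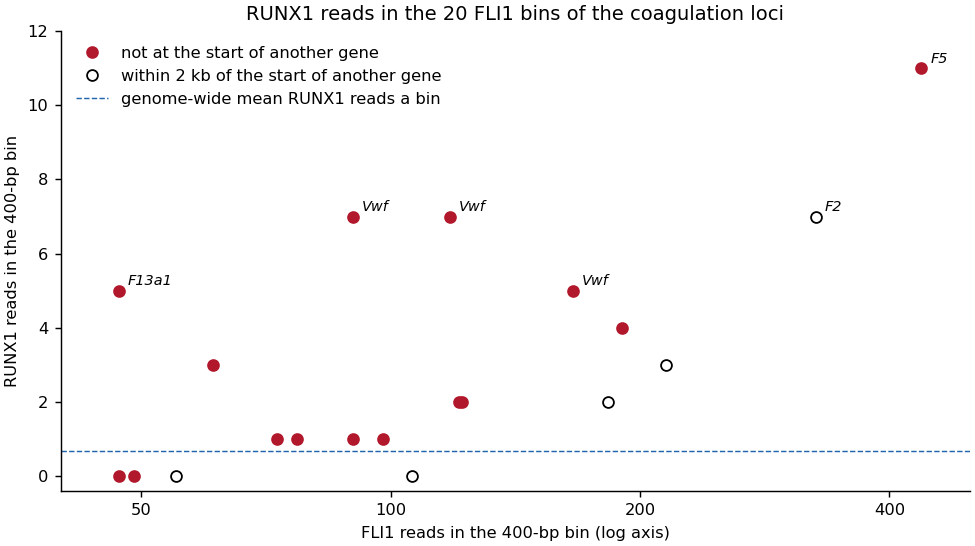
RUNX1 reads (vertical axis) against FLI1 reads (horizontal log axis) in each of the 20 FLI1 bins of the 9 genes. Filled points lie away from, and open points within 2 kb of, the start of another gene. The dashed line is the genome mean of 0.668 RUNX1 reads per bin, and 4 bins lie at 0, below it.

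Sequence words were then counted in the 400-bp bins on both strands. An ETS word of 7 letters, which is CAGGAAA or else CAGGAAG and their counterparts CCGGAAA or else CCGGAAG, occurred in 17 of the 20 FLI1 bins, 85.0%, against 67.3% of all FLI1 bins and 25.1% of genome bins. The bins without one were the F5 intron 2 bin, the F13a1 bin with 73 FLI1 reads and the Pros1 intron 1 bin. The CAGGAAA at the F5 intron 2 summit lies on the edge of its bin and falls partly outside it. The shorter GGAAGT, which overlaps CAGGAAG and CCGGAAG where T follows and was added after the sequences were seen, occurred in 9 of 20 bins, 45.0%, against 49.7% of all FLI1 bins and 21.3% of genome bins. A RUNX word occurred in 8 of 20, against 38.3% and 27.7%. GATA words, which are AGATAA or else AGATAG and their counterparts TGATAA or else TGATAG, occurred in 12, 60.0%, against 44.3% and 59.8%. The NF-E2 word TGAGTCA occurred in none, against 9.75% and 6.47%. The Vwf exon 14 bin, called for RUNX1, held no RUNX word, nor did the one at the Arhgap1 start, and the F5 upstream bin held 2.

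Beyond these 9 genes, 39 other genes of coagulation and fibrinolysis were listed by function and all were found. Of these 5 had a FLI1 start-site ratio of at least 2 (background 25.7%) and 4 a RUNX1 ratio of at least 2 (background 16.7%). The 5 were Thbd at 3.09 (2.20–4.47), thrombomodulin, the thrombin receptor that activates protein C, Serpinb2 at 2.74 (1.94–4.00), an inhibitor of plasminogen activators, Ggcx at 2.48 (1.66–3.83), the carboxylase of vitamin K-dependent factors, Plaur at 2.25 (1.57–3.31), the urokinase receptor, and S100a10 at 2.24 (1.58–3.24), a plasminogen-binding partner of annexin A2. Plaur, Ggcx and Serpinb2 were also among the 4 for RUNX1, at 2.81 (1.50–5.11), 2.54 (1.21–5.07) and 2.13 (1.06–4.04). The other, named after its values were seen, was Mmrn1 at 2.92 (1.07–7.33), a granule protein that binds factor V. The lowest FLI1 ratios were those of the plasma proteins kininogen (Kng1, 0.518), alpha-2-antiplasmin (Serpinf2, 0.582) and protein Z (Proz, 0.585). Grouped after their values were seen, the 17 liver plasma proteins of the list had no gene at 2, a median of 0.886 and a range of 0.518 to 1.40, and the other 22 had a median of 1.40.

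Vwf was compared in its pair of start-site ratios, as the distance between log2 FLI1 and log2 RUNX1 ratios over the 2 antibodies, with genes that had at least 10 input and 10 RUNX1 reads in the window, a minimum that Vwf just met. Of these 9040 genes, Amigo1 had the same ratios (distance 0), followed by Gm10419 and Ptp4a3 at 0.00475 and 0.0103, and 111 genes lay within 0.1. Its start-site ratios thus lay among those of many genes, and its first FLI1 summit lay at the start of the longest coding transcript, outside the window around the gene record's 5′ end.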

How the data were processed

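Reads of FLI1 and RUNX1 ChIP and of input DNA from mature MK (1 library each) were used. The authors mapped them to mm9 with Bowtie (version not given in the sources used here), kept those that mapped to a single place, once each, and deposited read positions with strand rather than counts or a normalized unit. The submitters' processing notes also list MACS 1.4 and SICER 1.1, whose calls were not used here. Positions that occur again (3.24% of input reads) were reduced to 1 read, as the ChIP files already are. Reads on chromosome M were left out. Each 5′ end was moved 75 bp in the 3′ direction, from the 150 bp fragment of the study's methods, and counted here in windows and bins.

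Counts were scaled to all nuclear reads. The ratio to input has an exact conditional binomial interval, and shares have exact Clopper-Pearson intervals, both of which cover counting error only. Reads are not tied to molecules. Per 100 plus-strand reads, 178 (FLI1), 32.2 (RUNX1) and 28.5 (input) more minus-strand ends lay 80 to 400 bp ahead than in the same span 1 kb farther on. These excesses were not scaled to depth and also rise where reads cluster, so they do not count read pairs and cannot be compared between libraries. Reads from both ends of 1 fragment would count double, and intervals of all 3 libraries would then be too narrow, which was not tested. Fold and bin thresholds (FLI1 4, RUNX1 8, start ratio 2) and a minimum of 10 input reads for the background of genes apply throughout. Background bins lie on a fixed grid over the genome, without those that held no read in any library.

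Gene models were GENCODE M1 on NCBIM37 (mm9), and sequences were read from that assembly. Of 20000 reads compared with it per ChIP library, 82.9% of FLI1 and 59.7% of RUNX1 reads were identical, and 96.4% and 96.6% had at most 2 mismatches. The scripts were checked on simulated data, in which sites near a threshold were often missed. FLI1 bins set at 4-fold and 6-fold were called in 18.0% and 90.0% of cases. RUNX1 bins set at 6-fold and 10-fold were called in 20.0% and 62.0%. Start windows set at 2-fold reached a ratio of 2 in 56.0% (FLI1) and 48.0% (RUNX1). The genes named were the 9 members, genes whose start lies within 2 kb of a called bin, the host gene Selp (named after values were seen), up to 8 genes of the further list at a FLI1 ratio of 2 or more with the 3 lowest, and the 3 genes nearest to Vwf. The members and lists were chosen with earlier results of these data known. Alternatives covered read position, repeated input, scaling, start site, window, bins, expectation, thresholds, territory and depth. Python 3.11.15, numpy 2.4.6, scipy 1.17.1, pandas 2.3.3 and matplotlib 3.10.9 were used. Other libraries and the microarrays of the study were not analysed here.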

Additional observations from a re-analysis of the deposited data

How the results depend on the processing

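No paired analysis was possible because each group has 1 library, so no replicate could be paired or left out. Of the 7 summary results, the RUNX1 ratio over FLI1 bins kept within its interval under every alternative run (3.45 to 4.80). The number of genes with a FLI1 start ratio of at least 2 (2 as reported) became 1 with the median of 400-bp bins as scaling, 5 with a 1-kb window, and 5 and 0 at ratios of 1.5 and 3 (40.7% and 9.38% of all genes). That for RUNX1 (0 as reported) became 1 without the read shift, 2 with a 1-kb window and 4 at a ratio of 1.5 (33.8% of all genes). The 14 FLI1 bins of the MK-made genes became 24 without the input, 26 at 3-fold and 9 at 6-fold (0.574%, 0.597% and 0.181% of genome bins). The 2 of the liver genes became 0 with territories of 10 kb or without bins at other starts. With FLI1 thinned to the RUNX1 depth, where 3 reads reach 4-fold, the counts were 62 (4.02% of bins) and 11 (2.58%), beside 2.48% of genome bins. The 2 RUNX1 bins of the MK-made genes became 4 with bins moved by 200 bp, 5 without the input (0.112% of genome bins), 7 at 6-fold (0.223%), and 1 with input over 10 kb or with territories of 10 kb. The 1 of the liver genes became 2 at 6-fold and 0 without the shift, with moved bins, with input over 10 kb, with territories of 10 kb or without bins at other starts. The cause of these shifts was not tested beyond what each setting changes by construction. The other 44 summary values stayed within 1.5 times the reported count or, for the RUNX1 ratio, within its interval. Of the single-gene start ratios, 101 stayed within their reported 95% counting intervals, which are wide for RUNX1, and 7 left them. No ratio whose interval lay off 1 crossed 1. Of FLI1 ratios whose interval held 1, Vwf fell to 0.872 in the 1-kb window and Serpine2 to 0.931 with FLI1 thinned. Pros1 came under 2, at 1.37 with FLI1 thinned and 1.99 with the 400-bp median, and F13a1 passed 2, at 2.45 with FLI1 thinned, 2.03 with repeated input kept and 2.15 from the coding transcript start. Thinning also gave 4.996 for F8, 0.365 for F2 and 0.382 for Fga. The thinned values come from a single random draw that left few FLI1 reads per window, and the spread between draws was not tested. The median RUNX1 count of 400-bp bins is 0, so that scaling gave no RUNX1 value. The median of 10-kb bins, the removal of bins at other starts, the X chromosome mean and the RUNX1 genome mean were chosen after seeing the data.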
